A study of Homo sapiens with 4 samples.

Results

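The histone H3 lysine 9 (H3K9) methylation system of U87MG cells was examined through 10 genes, 6 encoding H3K9 methyltransferases (*SUV39H1*, *SUV39H2*, *EHMT1*, *EHMT2*, *SETDB1* and *SETDB2*), 3 encoding the heterochromatin protein 1 (HP1) readers (*CBX1*, *CBX3* and *CBX5*), and *TRIM28*, which encodes a corepressor. They were chosen by name, as the enzymes of the class that chaetocin is described to inhibit and the proteins that read or recruit their mark, out of 57905 genes in the count tables. No measured value enters this rule, but the choice was made with earlier results of these data known. U87MG is an established human glioblastoma line, of wild type genotype per the labels. Polyadenylated RNA of 4 samples was sequenced, 2 left untreated (control) and 2 given chaetocin, a fungal metabolite, at 50 nM for 24 h. Chaetocin was dissolved in DMSO and the controls received nothing, so the compound and its solvent cannot be told apart. The counts summed to between 21241984 and 32590479 per sample. The comparison asked whether transcripts of the enzymes, readers and corepressor differed between chaetocin-treated and untreated cells.

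Methylation of H3K9 marks silent chromatin. SUV39H1 and SUV39H2 place the trimethyl mark at pericentromeric and other constitutive heterochromatin, EHMT1 (GLP) and EHMT2 (G9a) act as a heterodimer that mono- and dimethylates H3K9 in euchromatin, and SETDB1 trimethylates H3K9 at transposable elements and zinc finger gene clusters. SETDB1 is brought there by TRIM28 (KAP1), which binds KRAB zinc finger proteins. HP1 proteins bind the methylated lysine through a chromodomain and hold further silencing factors, SUV39H1 among them.

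None of the 10 genes was differentially expressed at an adjusted p-value under 0.05 in edgeR's quasi-likelihood test with Benjamini-Hochberg adjustment over 16416 tested genes (n = 2 samples per group). Among all tested genes, 1.11% were called higher and 0.743% lower (182 and 122 genes, or 246 and 88 with upper-quartile normalization). The 10 genes all passed the filter on low counts. At an unadjusted p-value under 0.05, the same test named 1 of the 10, *TRIM28*, which was higher with chaetocin, where 10.9% of all tested genes were higher and 9.43% lower by that rule. DESeq2's Wald test also called *TRIM28* alone among the 10, where it called 2.35% of genes higher. The median log2 fold change of the 10 genes was 0.02, and that of all tested genes was 0.01. For 9 of the 10 genes, the 95% interval of the fold change lay within a doubling and a halving, as it did for 61.4% of all tested genes. The exception was *TRIM28*, and the adjusted p of the other 9 genes lay between 0.405 and 0.981. Nothing in the labels says that the samples of a group came from separate cultures, so the p-values measure the spread between these samples, which may be technical.

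The counts behind these values ranged from 166 for *SETDB2* in chaetocin sample 1 to 26643 for *TRIM28* in chaetocin sample 2. Counting error alone is 7.76% at the smallest of these counts, and PCR reads are not independent molecules, so this covers counting error only. The chaetocin samples differed from each other more than the controls did, with a median absolute log2 difference of 0.28 against 0.17 over all tested genes. *CDKN2A*, a gene known to be deleted in U87MG cells, had 0 reads in every sample. Taking 3 reads as the bound allows at most between 0.0921 and 0.141 CPM (counts scaled to library size). This bound used the total counts of each sample, while the other CPM values use library sizes also normalized between samples. The 7 genes listed as typical of this line were present in all samples, with a summed level of 15320 and 12350 CPM in the controls and of 9219 and 5533 CPM with chaetocin. All 7 had a log2 fold change below 0 (median -0.80), led by *CD44* (-1.20), *SPARC* (-1.05) and *FN1* (-1.04), 0 were called by edgeR, 6 passed an unadjusted p under 0.05, where 9.43% of all tested genes were lower, and DESeq2 called 5, where it called 2.93% of genes lower. Their part in the values given next was not tested.

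**Figure D1:**
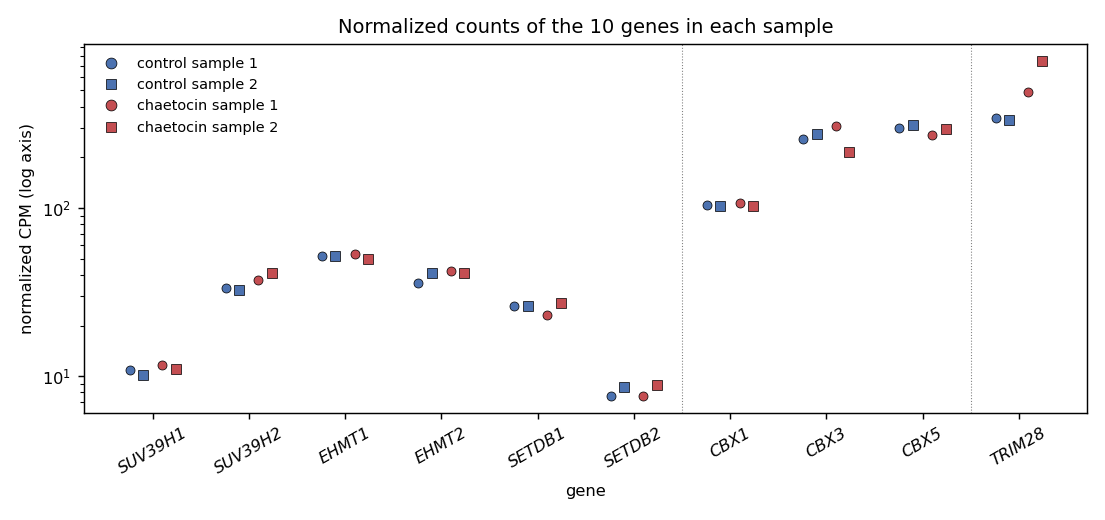
Normalized CPM of each gene in each sample, on a log axis, with controls in blue and chaetocin samples in red, circles for sample 1 and squares for sample 2. Dotted lines divide methyltransferases, HP1 genes and *TRIM28*, whose chaetocin samples at 487 and 750.0 CPM both lie above the controls at 342 and 335 CPM.

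*SUV39H1* (ENSG00000101945) lies on chromosome X of GRCh38 from 48695554 to 48709012 and encodes the methyltransferase for which chaetocin is best known. Its reads numbered 267 and 293 without chaetocin and 253 and 393 with it. Normalized for library size, these were 10.9 and 10.2 CPM in the controls and 11.6 and 11.1 CPM with chaetocin. Both chaetocin samples stood above both controls, but by less than the test could separate from the spread between replicates, with a log2 fold change of 0.10 (standard error 0.19, 95% interval -0.34 to 0.54, edgeR quasi-likelihood adjusted p = 0.815). The interval corresponds to a level between 0.79 and 1.46 times that of control cells.

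*SUV39H2* (ENSG00000152455, chromosome 10, 14878820 to 14904315), the closest relative of *SUV39H1*, had 33.6 and 32.4 CPM in the controls and 37.1 and 40.9 CPM with chaetocin. This was the largest difference among the 6 enzyme genes, and the groups did not overlap. The log2 fold change was 0.24 (standard error 0.15, 95% interval -0.10 to 0.59, edgeR quasi-likelihood adjusted p = 0.405), and 45.7% of all tested genes had one as small or smaller in size. In the annotation, 159 of its exon bases coincide with *DCLRE1C* on the opposite strand, and *DCLRE1C* had 577 and 682 reads in the controls and 490 and 1021 with chaetocin.

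The promoters of these enzyme genes, and of *CBX3*, are shown because the compound is aimed at the first, the second differed most among the enzymes, and the third holds 2 of the 4 motifs searched for. The sequences are RefSeq's on GRCh38.p14, from 250 bases before to 50 bases after a gene start, on the coding strand, and capitals mark the motifs. In the table used, 9 of the 10 genes matched, and *SUV39H1* has 2 starts there, of which the one with more CpG dinucleotides is given (42 against 7). It lies at chrX:48696484-48696783, that of *SUV39H2* at chr10:14878616-14878915, and that of *CBX3* at chr7:26201193-26201492, each on the plus strand.
SUV39H1: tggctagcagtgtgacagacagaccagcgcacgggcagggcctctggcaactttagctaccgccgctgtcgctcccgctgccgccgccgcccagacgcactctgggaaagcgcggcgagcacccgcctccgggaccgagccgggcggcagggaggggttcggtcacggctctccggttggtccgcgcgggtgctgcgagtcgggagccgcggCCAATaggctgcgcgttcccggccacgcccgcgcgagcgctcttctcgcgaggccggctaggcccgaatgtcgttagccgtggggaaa
SUV39H2: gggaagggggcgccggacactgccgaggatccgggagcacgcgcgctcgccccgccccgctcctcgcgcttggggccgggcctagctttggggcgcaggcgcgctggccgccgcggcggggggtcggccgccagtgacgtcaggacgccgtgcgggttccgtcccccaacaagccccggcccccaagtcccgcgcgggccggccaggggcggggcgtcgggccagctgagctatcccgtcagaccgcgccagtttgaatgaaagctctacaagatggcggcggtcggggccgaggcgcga
CBX3: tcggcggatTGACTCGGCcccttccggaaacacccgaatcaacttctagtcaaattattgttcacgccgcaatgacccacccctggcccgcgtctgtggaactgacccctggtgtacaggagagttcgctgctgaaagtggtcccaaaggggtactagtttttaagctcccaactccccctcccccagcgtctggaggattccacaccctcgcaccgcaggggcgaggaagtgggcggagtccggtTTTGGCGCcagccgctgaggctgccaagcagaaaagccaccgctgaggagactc
The CpG dinucleotides numbered 42 in the first, 44 in the second and 19 in the third, against a median of 14 over 35116 promoters of the same length. The *SUV39H1* window was picked by this same count, so its comparison with the median carries no weight, and the other *SUV39H1* start had 7. The motifs were searched on both strands: the core of the antioxidant response element bound by NRF2 (TGACNNNGC), a pair of E2F sites (TTTCCCGC and TTTGGCGC) and the CCAAT box (CCAAT), none of which overlapped another in the sequences shown. The *SUV39H1* promoter holds a CCAAT box, which 34.6% of all promoters hold. The *CBX3* promoter holds the antioxidant core, which 13.3% of all promoters hold, and TTTGGCGC, which 0.652% hold. Because *CBX3* was picked for these motifs, the shares do not measure how unusual its promoter is. Among the promoters not shown, those of *SETDB2* and *CBX5* hold a CCAAT box. The *SUV39H2* window holds none of the 4. These matches describe letters in the window and were not tested as binding sites.

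*EHMT1* and *EHMT2*, whose products work as a pair, did not differ in a way the test could detect. *EHMT1* (ENSG00000181090, chromosome 9, 137618963 to 137870016) had 52.0 and 51.5 CPM in the controls and 53.3 and 49.6 CPM with chaetocin. The chaetocin samples enclosed the controls, and the log2 fold change was -0.01 (95% interval -0.34 to 0.32), a sign that turned to positive with upper-quartile normalization, with a filter of 10 counts in every sample and with protein-coding genes alone, and stayed negative with RLE size factors and with no filter. *EHMT2* (ENSG00000204371, chromosome 6, 31879759 to 31897687) had 35.7 and 40.9 CPM in the controls and 42.1 and 41.2 CPM with chaetocin. The groups of *EHMT2* were apart by less than the controls were from each other, with a log2 fold change of 0.12 (95% interval -0.23 to 0.47).

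*SETDB1* (ENSG00000143379, chromosome 1, 150926263 to 150964744), the enzyme that works with TRIM28, had 26.2 and 26.1 CPM in the controls and 23.2 and 27.3 CPM with chaetocin. One chaetocin sample lay below the controls and the other above them, and the log2 fold change was -0.05 (95% interval -0.43 to 0.33), or 0.03 with upper-quartile normalization. In the annotation, 948 of its 7093 exon bases coincide with *CERS2* on the opposite strand, which had between 6046 and 9874 reads per sample against 504 to 969 for *SETDB1*. Whether strand was used in counting is not given in the sources used here, so part of the *SETDB1* reads cannot be told apart from *CERS2*. *SETDB2* (ENSG00000136169, chromosome 13, 49444374 to 49495003), a less studied relative of *SETDB1*, had the lowest level of the 10 genes, with 7.62 and 8.67 CPM in the controls and 7.63 and 8.87 CPM with chaetocin. Its log2 fold change was 0.02 (95% interval -0.48 to 0.52), and both groups covered nearly the same range.

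The 3 HP1 genes were expressed well above the enzyme genes and had no common direction. *CBX1* (HP1 beta, ENSG00000108468, chromosome 17, 48070052 to 48101521) had 104 and 103 CPM in the controls and 108 and 102 CPM with chaetocin, and its interval was the narrowest of the 10 (log2 fold change 0.02, 95% interval -0.29 to 0.34). *CBX5* (HP1 alpha, ENSG00000094916, chromosome 12, 54230940 to 54280133) had 298 and 309.6 CPM in the controls and 272 and 294 CPM with chaetocin. Both chaetocin samples of *CBX5* were below both controls, by a log2 fold change of -0.10 (95% interval -0.45 to 0.25). It was the 1 gene of the 10 with this order, which 26.0% of all tested genes had. The reverse order, with both chaetocin samples above both controls, was found in 4 of the 10 (*SUV39H1*, *SUV39H2*, *EHMT2* and *TRIM28*) and in 26.8% of all tested genes.

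*CBX3* (HP1 gamma, ENSG00000122565, chromosome 7, 26201162 to 26213356) gave the least stable value of the HP1 genes. It had 256 and 275 CPM in the controls, 309 CPM in chaetocin sample 1 and 214 CPM in chaetocin sample 2. The chaetocin samples thus lay on either side of the controls, at log2 differences of 0.22 and -0.31 from the control mean, and the log2 fold change of -0.02 (95% interval -0.48 to 0.43) lies between opposite differences and turned to 0.05 with upper-quartile normalization. Without chaetocin sample 2 the log2 fold change was 0.21, and without chaetocin sample 1 it was -0.31 (edgeR quasi-likelihood adjusted p = 0.355 and 0.144, each from an arm of 1 chaetocin sample with the spread taken from the controls). The *CBX3* transcription unit begins next to that of *HNRNPA2B1*, with 368 exon bases shared on opposite strands, and *HNRNPA2B1* had between 21869 and 30276 reads per sample. Processed pseudogenes of HP1 genes, whose near-identical sequence can take or give short reads, numbered 15 in the tables. The 5 of *CBX1* had 0 reads in every sample, the 9 of *CBX3* had between 14 and 30 reads in all per sample, led by *CBX3P2* with at most 15, and the 1 of *CBX5* had at most 2. How reads with several matches were treated is not given in the sources used here.

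**Figure D2:**
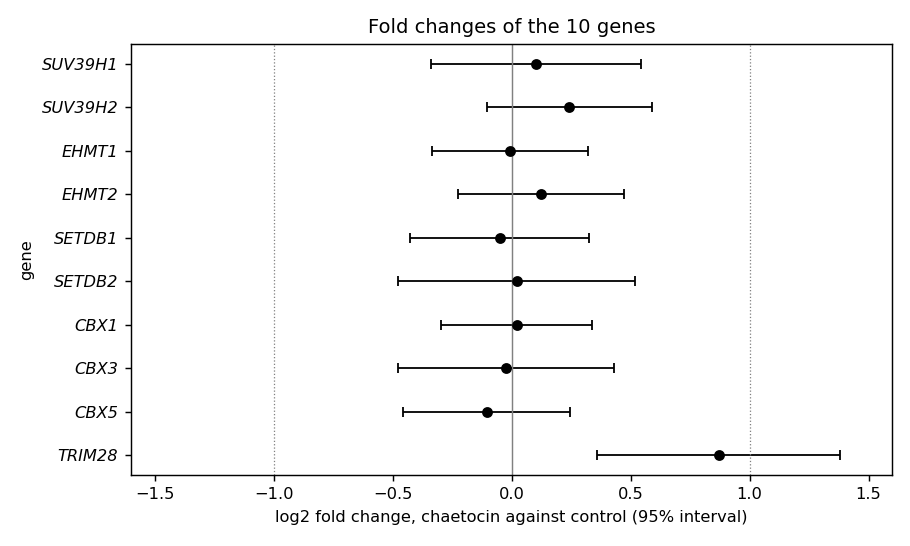
Log2 fold change of each gene between chaetocin-treated and control cells, with the 95% interval from edgeR's quasi-likelihood fit; dotted lines mark a halving and a doubling. The intervals of 9 genes include 0 and lie between -0.48 and 0.59, and that of *TRIM28* runs from 0.36 to 1.38.

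*TRIM28* (ENSG00000130726, chromosome 19, 58544091 to 58550722), which encodes the scaffold that joins KRAB zinc finger proteins to SETDB1 and HP1, was the gene of the 10 with the largest difference. Its reads numbered 8347 and 9631 without chaetocin and 10601 and 26643 with it. The level was 342 and 335 CPM in the controls, 487 CPM in chaetocin sample 1 and 750.0 CPM in chaetocin sample 2. The controls were nearly equal, and both chaetocin samples lay well above them but far from each other, at 1.44 and 2.21 times the control mean. The mean went from 339 ± 4.85 CPM to 619 ± 186 CPM (SD, n = 2 each). This gave a log2 fold change of 0.87 (standard error 0.22, 95% interval 0.36 to 1.38), which is 1.83 times the control level with an interval of 1.28 to 2.60. The edgeR quasi-likelihood adjusted p was 0.0835 (unadjusted 0.00416), and 0.00516 from DESeq2's Wald test with a log2 fold change of 0.85. By log2 fold change *TRIM28* ranked 1458 and by p-value 818 among the 16416 genes.

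The call of *TRIM28* changed with the processing and with the samples used. With all 4 samples and no filter on low counts it passed (log2 fold change 0.85, edgeR quasi-likelihood adjusted p = 0.00025). Without chaetocin sample 2 its log2 fold change was 0.52 (edgeR quasi-likelihood adjusted p = 0.0347), and without chaetocin sample 1 it was 1.15 (adjusted p = 8.65e-05). In these fits the spread came from the controls, the remaining chaetocin sample was assumed to vary like them, and the calls over all genes numbered 712 up and 940 down in the former and 1332 up and 1673 down in the latter, against 182 and 122 with all samples. Without control sample 1 or control sample 2 the log2 fold changes were 0.87 and 0.84 (adjusted p = 0.192 and 0.289), with the spread taken from the chaetocin samples, which differed from each other more than the controls. No annotated exon of another gene coincides with one of *TRIM28*, so its reads are not shared in that way.

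Levels per exon length were compared between genes. The order of genes within a sample does not depend on scaling between libraries, but the means and ranges given here do. In RPKM, which is CPM per kilobase of annotated exon, the control means ran from 83.9 for *TRIM28* through 57.2 for *CBX3*, 33.5 for *CBX1* and 20.2 for *CBX5* to 9.25 for *SUV39H2*, 5.25 for *EHMT2*, 3.69 for *SETDB1*, 3.14 for *SUV39H1*, 2.33 for *EHMT1* and 1.22 for *SETDB2*. In the controls, no neighbours in this order overlapped. With chaetocin the order of the means was the same, and the ranges of *SETDB1* (3.27 to 3.85 RPKM) and *SUV39H1* (3.29 to 3.45 RPKM) overlapped. Within chaetocin sample 1 this pair was reversed, with 3.45 RPKM for *SUV39H1* and 3.27 RPKM for *SETDB1*. The level per kilobase of *EHMT1* rests on a union of exons of 22217 bases, and with its longest transcript of 7842 bases the control mean was 6.60 RPKM, above the 5.89 RPKM of *SETDB1* by the same rule. That rule also turned the order of the highest pair, with 124.7 RPKM for *CBX3* and 114 RPKM for *TRIM28*.

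**Figure D3:**
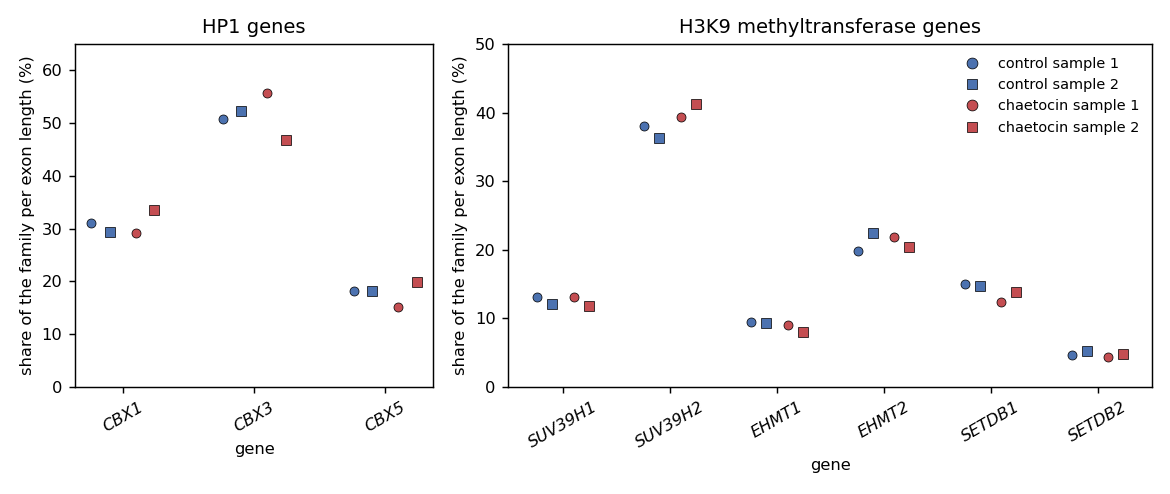
Share of each gene in the level of its family within each sample, as reads per kilobase of exon in percent of the family's sum, for the 3 HP1 genes on the left and the 6 methyltransferase genes on the right. *CBX3* holds the largest HP1 share in all 4 samples, from 46.7% to 55.7%, and *SUV39H2* the largest enzyme share, from 36.3% to 41.3%.

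Within the HP1 family, *CBX3* supplied 50.8% and 52.4% of the reads per kilobase in the controls and 55.7% and 46.7% with chaetocin. *CBX1* supplied 31.0% and 29.4% in the controls and 29.2% and 33.5% with chaetocin, and *CBX5* the remaining 15.1% to 19.8%. For each HP1 gene, the chaetocin samples enclosed the controls, so no shift between paralogues was detectable. Among the methyltransferases, the share of *SUV39H2* was 38.1% and 36.3% in the controls and 39.4% and 41.3% with chaetocin, and that of *SETDB1* was 14.9% and 14.7% in the controls and 12.4% and 13.8% with chaetocin. *EHMT1* supplied 9.46% and 9.27% in the controls and 9.07% and 8.03% with chaetocin. For these 3 of the 6 genes the groups did not overlap (in CPM, 26.8% of all tested genes did not overlap upward and 26.0% downward), with mean differences of 3.10, -1.73 and -0.81 percentage points. By longest-transcript length the mean share of *EHMT1* was 17.7% in the controls and 16.4% with chaetocin, a difference of -1.31 points. The size of the other shares also depends on the length used. By that rule the control means were 64.35% for *CBX3*, 22.0% for *CBX1*, 13.6% for *CBX5* and 28.6% for *SUV39H2*. Leaving out each sample, an alternative added after seeing the data, gave 2.15 to 4.06 points for *SUV39H2*, -2.47 to -1.001 for *SETDB1* and -1.34 to -0.29 for *EHMT1* without one or the other chaetocin sample. With 2 samples against 2, an exact permutation test cannot give a two-sided p below 0.333, so the shares are given without a test.

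The ratio of *TRIM28* to *SETDB1*, in reads per kilobase of each, was 22.9 and 22.6 in the controls and 37.0 and 48.4 in the chaetocin samples. The ratio of *SUV39H2* to *SUV39H1* was 2.90 and 2.999 in the controls and 3.01 and 3.50 with chaetocin. The groups did not overlap in these ratios, the only such ones among all those computed. Such an order is common with so few samples: in CPM, 26.8% of all tested genes did not overlap upward and 26.0% downward. The ratio of *EHMT1* to *EHMT2*, was 0.478 and 0.413 in the controls and 0.415 and 0.395 with chaetocin, with overlapping groups, as were those of *SETDB1* to *SETDB2* and of the 3 pairs of HP1 genes.

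Beyond the 10 genes, 48 genes of the same pathway were listed, of which 47 were found and 45 had enough reads to be tested. edgeR's quasi-likelihood test called 0 of the 45 at an adjusted p under 0.05, and DESeq2's Wald test also called 0. Among all tested genes, edgeR called 1.11% higher and 0.743% lower, and DESeq2 2.35% and 2.93%, so few calls would be looked for in 45 genes. At an unadjusted p under 0.05 edgeR gave 3 higher and 3 lower, against 10.9% and 9.43% of all tested genes. The higher ones were *KDM4D*, *KDM7A* and *INCENP* (0.36), a subunit of the chromosomal passenger complex named here after its value was seen, and the lower ones were *TASOR*, *SENP7* and *ATRX*. The median log2 fold change of the 45 genes was 0.05. Partners of the enzymes had a median of 0.11 over 8 genes, and the largest values were 0.41 for *PCGF6* and -0.21 for *L3MBTL2*, both subunits of a Polycomb complex that also contains EHMT1 and EHMT2, and 0.20 for *ATF7IP*, which stabilizes SETDB1.

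In the HUSH complex, which recruits SETDB1 to transposons and other inserted sequence, *TASOR* was at 209 and 212 CPM in the controls and at 153 and 152 CPM with chaetocin. The replicates nearly coincided and the groups did not overlap, as in 11 higher and 10 lower of the 45 genes (against 26.8% and 26.0% of all tested genes), with a log2 fold change of -0.46 (95% interval -0.79 to -0.14) that missed the threshold (edgeR quasi-likelihood adjusted p = 0.124). *MPHOSPH8*, the chromodomain subunit that reads H3K9 methylation, had a log2 fold change of 0.29 and *MORC2*, an ATPase that acts with HUSH, one of -0.26, and neither passed. Among 18 HP1-binding and heterochromatin proteins, the values farthest from 0 were -0.58 for the SUMO protease gene *SENP7*, 0.54 for *KMT5C*, which places the H4K20 trimethyl mark downstream of HP1, and -0.44 for *ATRX*, a chromatin remodeller that binds H3K9-trimethylated chromatin. *ATRX* was at 159 and 165 CPM in the controls and at 118 and 121 CPM with chaetocin, with an interval from -0.76 to -0.12 and an edgeR quasi-likelihood adjusted p of 0.135.

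The PRDM relatives, proteins with a domain related to that of the H3K9 enzymes, had a median of -0.13 over 4 tested genes, with -0.22 for *PRDM10*, -0.16 for *MECOM* and 0.14 for *PRDM2*. H3K9 demethylases, which remove the mark, had a median of -0.08 over 11 genes. *KDM4D* had the largest value (1.02, 95% interval 0.27 to 1.77, edgeR quasi-likelihood adjusted p = 0.137), from a level of 1.68 and 1.36 CPM in the controls and of 2.66 and 3.46 CPM with chaetocin. *KDM7A* followed with 0.42 and *KDM4B* with -0.35. The demethylase genes thus lay on both sides of 0, with 4 above and 7 below.

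**Figure D4:**
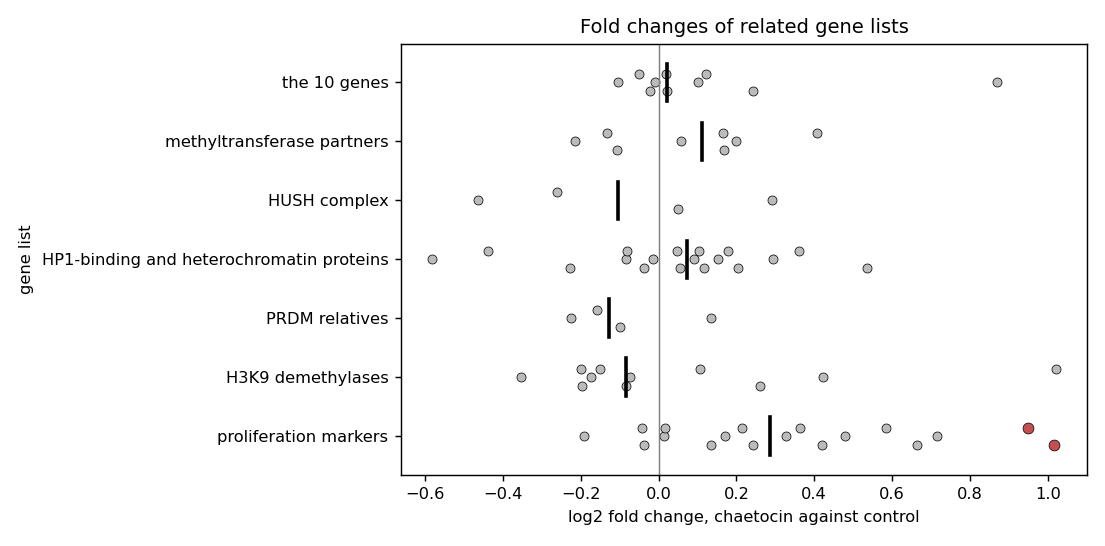
Log2 fold change of each tested gene (points) in the 10 genes, in the other lists of the pathway and in the proliferation markers, with the median of each list as a bar; red points passed an adjusted p of 0.05 in edgeR's quasi-likelihood test. The passing points are *E2F1* at 0.95 and *RRM2* at 1.02, both proliferation markers.

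Levels of several of the 10 genes are known to vary with proliferation. Of 18 markers of proliferation, edgeR called 2 as upregulated (*E2F1* and *RRM2*) and 0 as downregulated, where 1.11% and 0.743% of all tested genes were called. DESeq2 called 3 as upregulated, the third being *CDK1*, the mitotic kinase, where it called 2.35% of genes higher. At an unadjusted p under 0.05 edgeR gave 7 higher and 0 lower, where 10.9% of all tested genes were higher. Of the 18, 15 were above 0, with a median log2 fold change of 0.29. *E2F1*, a transcription factor of S phase entry, was at 166 and 175 CPM in the controls and at 345 and 315 CPM with chaetocin, and *RRM2*, a ribonucleotide reductase subunit, was at 322 and 323 CPM in the controls and at 678 and 628 CPM with chaetocin (edgeR quasi-likelihood adjusted p = 0.0311 for both). The summed level of the 18 markers was 3976 and 4321 CPM in the controls and 5179 and 5282 CPM with chaetocin. Their part in the values of the 10 genes was not tested. In bulk RNA, fewer cells of a kind and less RNA per cell cannot be told apart.

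Markers of other cell types were listed as well. The 9 leukocyte markers summed to 28.1 and 23.3 CPM in the controls and to 38.0 and 20.8 CPM with chaetocin, most of it *CSF1R*. Of the 5 tested, edgeR called 3 higher (*PTPRC*, *ITGAM* and *FCER1G*), at levels of at most 3.08 CPM, where 1.11% of all tested genes were called higher. DESeq2 called 2 of these, without *PTPRC*, where it called 2.35% of genes higher. *PTPRC* and *ITGAM* each had 0 and 1 reads in the controls, so the filter on low counts admitted them only through the chaetocin samples. Such genes could be called only as higher, which makes those shares no fair comparison. *CD3E* and *MS4A1* were at 0 in every sample. The 5 epithelial markers summed to between 2.26 and 4.46 CPM per sample, with *KRT5* at 0 throughout and the 3 tested, *KRT8*, *EPCAM* and *CDH1*, at no more than 2.11 CPM. All 3 were above 0 in log2 fold change, 0 were called by edgeR or DESeq2, and 2 (*EPCAM* and *CDH1*) were higher at an unadjusted p under 0.05, where 10.9% of all tested genes were. *CDH1*, with 3 and 4 reads in the controls and 11 and 20 with chaetocin, likewise passed the filter only through the chaetocin samples. The 6 neuron and oligodendrocyte markers summed to 60.8 and 53.9 CPM in the controls and to 43.7 and 26.1 CPM with chaetocin, with 0 called by edgeR or DESeq2 and 1 lower at an unadjusted p under 0.05, where 9.43% of all tested genes were. Nearly all of this sum was *SNAP25*, a synaptic vesicle fusion protein (42.1 and 34.7 CPM in the controls, 28.9 and 11.1 CPM with chaetocin), and *SYT1*, a calcium sensor of synaptic vesicles (17.4 and 17.9 CPM, then 13.2 and 13.9 CPM), while *MBP*, a myelin gene, was at no more than 0.965 CPM. The part of such cells in the values of the 10 genes was not tested.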

How the data were processed

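Gene counts from RNA sequencing were used for 2 control and 2 chaetocin samples. The authors deposited raw counts per Ensembl gene, 1 table per sample, as whole numbers without normalization. The submitters' processing notes name cutadapt, TopHat2, SAMtools and the build GRCh37, and the counting tool is not given in the sources used here. Groups and replicate numbers came from the sample titles. Of the 57905 identifiers, 52338, all 10 genes among them, had a symbol in GENCODE v29 (GRCh38), the source of positions and exon lengths. 1 listed gene, *UHRF1*, had no identifier in common with the tables.

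Differential expression was tested in R 4.3.3 with edgeR 4.0.16 (filterByExpr with a minimum count of 10, TMM, robust quasi-likelihood fit, no block), and p-values were adjusted over all 16416 genes with a threshold of 0.05. Intervals of 95% used the standard error (log2 fold change over the square root of F) and the total degrees of freedom. DESeq2 1.42.0, the tool of the study's methods, was an alternative, beside other normalizations, filters, a replicate block and leaving out each sample. The fits were tested on simulated data, where both tools recovered most of the changes put in but also made more false calls than the threshold allows, edgeR more than DESeq2. CPM are scaled by TMM library sizes. The 10 genes and all lists were chosen with earlier results of these data known. Named were the 10 genes and, from each other list of the pathway or marker list, called genes or else the 3 values farthest from 0, beside genes that check the cell line or other cell types, and *INCENP* and *CDK1*, chosen after their values were seen.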

Additional observations from a re-analysis of the deposited data

How the results depend on the processing

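With alternatives that kept all 4 samples, the log2 fold change of *TRIM28* stayed between 0.84 and 0.95, and 3 of 8 called it: DESeq2's Wald test (0.85), no filter on low counts (0.85, adjusted p = 0.00025 from edgeR) and the replicate block. The members of the set called as upregulated numbered 1 in each of these and at an unadjusted p under 0.05, against 0 with the other alternatives that kept all 4 samples, and those called as downregulated were 0 in all settings. None of the other 9 genes was called in any of the 108 combinations of gene and setting, where their log2 fold changes lay between -0.31 and 0.32.

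Samples are numbered 1 and 2 in both groups, but the labels tie the numbers to nothing shared, and across genes the deviations of same-numbered samples had r = 0.123, so the samples were not taken as pairs. With the replicate number as a block, the log2 fold change of *TRIM28* was 0.84 (edgeR quasi-likelihood adjusted p = 0.00252), 1036 genes were called up and 1053 down, and 1 of the 10 genes was called.

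Counts of all genes called up and down were 182 and 122, and 385 and 481 with DESeq2, 114 and 80 where every sample needed 10 counts, 787 and 759 without a filter, 246 and 88 with upper-quartile normalization, and 1791 and 1548 at an unadjusted p under 0.05. The cause was not tested. The sign turned for genes near 0. *EHMT1* had 0.013 where every sample needed 10 counts, 0.020 with protein-coding genes and 0.068 with upper-quartile normalization, which moved the median of all genes by 0.08. *SETDB1* had 0.027 with that normalization, and *CBX3* had 0.053 with it and 0.0066 with protein-coding genes. The median of the 10 genes, 0.02, was 0.043 where every sample needed 10 counts, 0.00070 without a filter, 0.049 with protein-coding genes and 0.10 with upper-quartile normalization.

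Leaving out each sample gave 215 to 1332 genes up and 97 to 1673 down, with 0 to 1 of the 10 called up. The log2 fold changes ranged from 0.52 to 1.15 for *TRIM28*, -0.31 to 0.21 for *CBX3*, -0.18 to 0.064 for *SETDB1*, -0.10 to 0.12 for *SETDB2*, -0.057 to 0.035 for *EHMT1*, -0.015 to 0.051 for *CBX1*, 0.01 to 0.21 for *EHMT2*, 0.04 to 0.14 for *SUV39H1*, 0.16 to 0.31 for *SUV39H2* and -0.17 to -0.05 for *CBX5*, and the median of the 10 from 0.00026 to 0.090. With 2 samples per group at these depths, the intervals of 9 of the 10 genes include 0 and do not exclude changes smaller than their bounds.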
